A study of Mus musculus with 10 samples.

Results

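The transcripts of 43 genes of the DNA replication machinery were measured in CD4 CD8 double-positive (DP) thymocytes that had lost the transcription factors E2A, HEB or both. These genes were 43 of the 19937 that the array names by a single symbol, chosen by name to cover the replicative helicase, origin licensing, the clamp and its loaders, the replicative polymerases, nucleotide supply and chromatin assembly. Where several probe sets named a gene, the one brightest on average stood for it. All 43 were on the array, and all 43 passed the filter on dim genes, which asked for the 40th percentile of an array to be reached in at least 2 arrays and left 13138 genes. Dscc1 was the only one to lie below that percentile on any array, namely on 1 DKO, 1 E2AKO and 2 WT arrays.

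RNA of sorted DP cells, taken from mice 8 weeks old, was hybridised to 10 Affymetrix arrays, 1 mouse each. The DKO group was E2Aflox/flox HEBflox/flox cd4-cre+ (n = 3), the HEBKO group HEBflox/flox cd4-cre+ (n = 2), the E2AKO group E2Aflox/flox Cd4-cre+ (n = 2) and the WT group wild-type cd4-cre+ (n = 3). All 4 groups therefore carry the Cre transgene, which Cd4 regulatory sequences drive, so that the floxed alleles are lost around the DP stage. The labels give the same sort and a high purity for every group.

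Before a cell copies its DNA, the origin recognition complex, Cdc6 and Cdt1 load the MCM helicase onto origins. The helicase is then switched on by Cdc45 and the GINS complex, and polymerases alpha, delta and epsilon copy the strands with the sliding clamp PCNA, its loader RFC and the single-strand binding complex RPA. Transcripts of these genes rise as cells enter S phase, largely under the control of E2F transcription factors. In the thymus, immature cells divide fast before and as they become DP, after which most DP cells are small and rest while they rearrange the T cell receptor alpha locus. In bulk RNA such as this, fewer cells of a type and less RNA per cell cannot be told apart.

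The sequences just upstream of these genes were set out first, because E2F factors and the E proteins E2A and HEB each bind a known short word. RefSeq promoters (build GRCm38.p6, 250 bases before to 50 after the start) were matched for 35 of the 43 genes. Mcm4, Gins1, Gins2, Gins4, Rfc2, Dscc1, Prim2 and Pole had no entry. The E2F words searched were TTTCCCGC, TTTCGCGC, TTTGCCGC and TTTGGCGC on either strand, with overlapping matches allowed. A word was found in the windows of 14 of the 35 genes (40%), against 2.26% of all 32851 promoter windows and 4.54% of the 10417 tested genes that have one. The E-box words CAGCTG and CAGGTG were found in 10 of the 35 (28.6%), against 32.9% of all windows and 35.5% of tested genes. A match is a description of the letters and shows no binding.

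The 250 bases upstream of the start are shown for 5 genes with an E2F word on either strand and for the 3 genes, of those with an entry, that passed a test described further on. Capitals mark E2F and E-box words. Cdc6 lies at chr11:98907901-98908150, plus strand, Mcm5 at chr8:75109259-75109508, plus strand, Mcm6 at chr1:128359706-128359955, minus strand, Rfc3 at chr5:151651209-151651458, minus strand and Pola1 at chrX:93632156-93632405, minus strand. Rpa1 lies at chr11:75348384-75348633, minus strand, Rfc5 at chr5:117389024-117389273, minus strand and Chaf1b at chr16:93883651-93883900, plus strand. Each is printed 5′ to 3′ on the strand of its gene.
Cdc6: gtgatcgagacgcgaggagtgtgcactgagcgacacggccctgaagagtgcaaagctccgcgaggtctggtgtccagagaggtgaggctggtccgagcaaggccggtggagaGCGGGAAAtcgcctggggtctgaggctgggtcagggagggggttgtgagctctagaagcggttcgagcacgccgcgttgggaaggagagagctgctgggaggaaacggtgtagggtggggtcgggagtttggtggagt
Mcm5: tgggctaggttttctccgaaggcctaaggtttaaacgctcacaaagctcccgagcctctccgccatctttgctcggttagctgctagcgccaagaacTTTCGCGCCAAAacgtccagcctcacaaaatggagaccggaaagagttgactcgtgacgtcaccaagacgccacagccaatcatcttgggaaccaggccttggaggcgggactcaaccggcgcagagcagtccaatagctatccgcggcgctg
Mcm6: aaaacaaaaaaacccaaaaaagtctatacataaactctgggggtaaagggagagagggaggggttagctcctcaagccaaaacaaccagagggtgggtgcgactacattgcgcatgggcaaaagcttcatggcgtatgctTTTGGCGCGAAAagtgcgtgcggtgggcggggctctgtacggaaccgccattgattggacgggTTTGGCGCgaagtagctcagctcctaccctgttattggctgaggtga
Rfc3: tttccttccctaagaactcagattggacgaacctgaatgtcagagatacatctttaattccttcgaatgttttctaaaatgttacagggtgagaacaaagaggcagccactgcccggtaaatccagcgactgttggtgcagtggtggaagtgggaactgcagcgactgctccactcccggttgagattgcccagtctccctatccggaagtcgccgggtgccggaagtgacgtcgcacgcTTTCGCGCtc
Pola1: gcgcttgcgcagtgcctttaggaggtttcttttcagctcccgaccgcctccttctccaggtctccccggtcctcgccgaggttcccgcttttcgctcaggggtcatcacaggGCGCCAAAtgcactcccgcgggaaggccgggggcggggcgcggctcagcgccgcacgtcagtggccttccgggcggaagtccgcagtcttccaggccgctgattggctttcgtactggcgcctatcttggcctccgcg
Rpa1: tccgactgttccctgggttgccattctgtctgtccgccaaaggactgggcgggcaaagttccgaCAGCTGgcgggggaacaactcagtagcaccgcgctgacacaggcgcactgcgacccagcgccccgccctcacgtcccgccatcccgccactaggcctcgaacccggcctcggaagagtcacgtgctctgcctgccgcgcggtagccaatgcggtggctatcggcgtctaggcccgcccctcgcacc
Rfc5: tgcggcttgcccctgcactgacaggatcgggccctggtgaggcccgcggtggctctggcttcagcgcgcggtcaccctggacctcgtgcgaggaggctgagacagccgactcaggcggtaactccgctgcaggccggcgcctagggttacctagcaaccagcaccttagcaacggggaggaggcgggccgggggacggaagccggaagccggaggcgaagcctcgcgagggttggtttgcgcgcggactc
Chaf1b: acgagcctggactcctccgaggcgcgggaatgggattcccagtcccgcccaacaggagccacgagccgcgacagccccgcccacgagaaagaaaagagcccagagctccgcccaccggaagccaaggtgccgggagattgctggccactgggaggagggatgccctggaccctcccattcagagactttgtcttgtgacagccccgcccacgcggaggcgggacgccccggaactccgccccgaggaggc
In Mcm5 and in Mcm6 a pair of E2F words on opposite strands overlap, so that each capital stretch of 12 letters holds both. Mcm6 holds a further word closer to the start, 47 bases before it. Rpa1 holds the E-box word CAGCTG, beginning 186 bases before the start, and no E2F word. Rfc5 and Chaf1b hold neither kind of word in this stretch.

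Median intensity over all probe sets was 92.6 to 98.6 on the 10 arrays. Values are log2 intensities, which compare a gene between arrays and not 1 gene with another. Tcf3, the gene of E2A, was at 9.29, 8.93 and 8.94 in DKO, 10.02 and 10.06 in HEBKO, 9.23 and 9.12 in E2AKO, and 9.65, 9.85 and 9.63 in WT. Tcf12, the gene of HEB, was at 10.68, 10.73 and 10.71 in DKO, 11.15 and 11.48 in HEBKO, 12.00 and 11.87 in E2AKO, and 11.91, 11.74 and 11.86 in WT. Every DKO array lay below every WT array for both genes, as did the HEBKO arrays for Tcf12 and the E2AKO arrays for Tcf3. Where the probes lie relative to the deleted exons was not analysed here. Markers of stage differed too. Of 8 DP markers, 7 fell in DKO against WT, while in HEBKO 7 of 8 had a fitted mean below WT and 0 were called, with summed linear intensities of 21476 to 25844 in DKO, 32272 to 43341 in HEBKO, 44869 to 45695 in E2AKO and 45143 to 47681 in WT. All 7 tested markers of resting or mature single-positive T cells rose in DKO, with summed linear intensities of 4291 to 6084 in DKO, 794.1 to 1722 in HEBKO, 725.4 to 994.7 in E2AKO and 786.1 to 841 in WT. The HEBKO arrays differed in both lists, with median differences from the WT mean of 1.19 and -0.06 for the mature markers and -0.56 and -0.11 for the DP markers in HEBKO 1 and HEBKO 2. Cd4 averaged 10.35 ± 0.25 in DKO and 12.23 ± 0.04 in WT (SD, n = 3 each). Of 6 tested markers of double-negative or immature thymocytes, 2 rose in DKO and 0 were called in HEBKO, with sums of 1889 to 2253 in DKO, 1601 to 1911 in HEBKO, 1278 to 1688 in E2AKO and 1255 to 1647 in WT. Il2ra averaged 8.55 in DKO and 6.37 in WT, and Dtx1 8.77 and 7.21, while Kit, Cd44 and Ptcra had DKO means below WT. Tfrc, the largest term of these sums, averaged 9.63 in DKO, 10.01 in HEBKO, 9.56 in E2AKO and 9.47 in WT. Of 5 tested thymic epithelium genes, 2 fell in DKO and 1 in HEBKO, with sums of 507.2 to 574.1 in DKO, 519.1 to 589.6 in HEBKO, 603.5 to 644.2 in E2AKO and 769.7 to 837.6 in WT. Cldn4 averaged 7.16 in DKO, 7.40 in HEBKO, 7.71 in E2AKO and 8.41 in WT. Foxn1, the 1 tested gene of this list with a DKO mean above WT, averaged 6.07, 6.11, 6.02 and 6.04. Krt5 and Psmb11 lay below the 40th percentile on all arrays. Of the B cell genes, 1 of 2 tested fell in DKO, and 3 of the 5 on the array, like 6 of 7 macrophage or dendritic cell genes, lay below the 40th percentile on all arrays. Over all genes tested, 8.18% were called higher and 5.41% lower in DKO against WT, and 0.274% and 0.632% in HEBKO. The part of the markers in the values of the replication genes was not tested.

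The replication genes stood highest in the cells without HEB alone. In HEBKO, 42 of the 43 had a fitted mean above WT, where 49.4% of all genes tested did, and the median difference was 0.52 on the log2 scale, against -0.0029 over all genes tested. In DKO, which lack HEB and E2A together, the median was 0.05, against -0.0056 over all genes tested, with 24 genes above WT and 19 below. In E2AKO it was -0.03, against -0.0213 over all genes tested, with 12 above and 31 below. Of all 13138 genes tested, 7419 lay below WT in E2AKO. These 3 comparisons share the WT arrays, so their values are set side by side and are not independent.

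**Figure D1:**
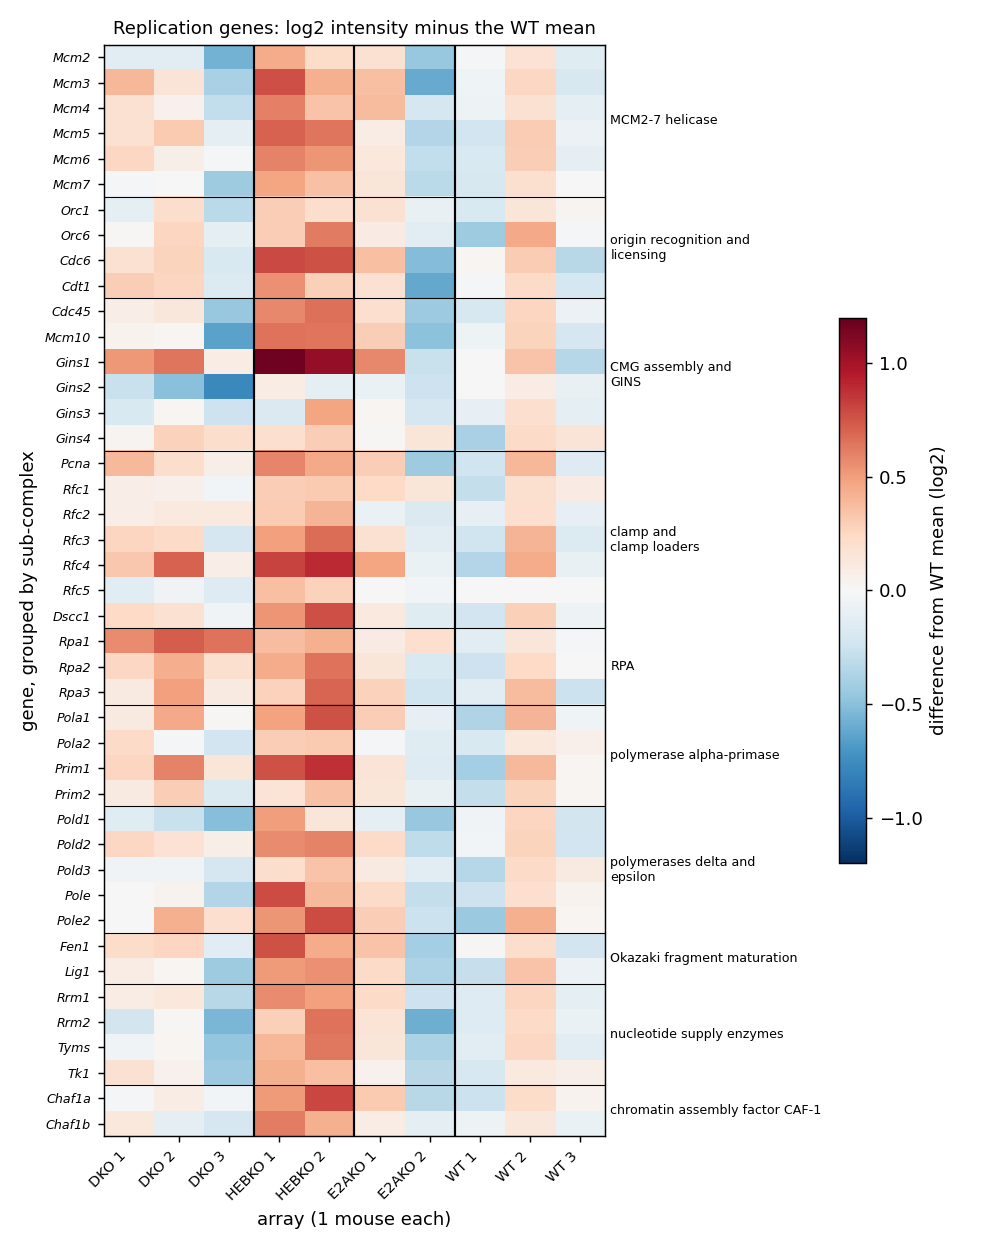
Log2 intensity of each of the 43 replication genes (rows, by sub-complex) on each of the 10 arrays (columns), as the difference from that gene's WT mean. Both HEBKO columns are above the WT mean for nearly all genes, while DKO 3, E2AKO 2 and WT 1 are low for most of them.

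The difference between HEBKO and WT was broad and passed the test for no single gene. By limma, with Benjamini-Hochberg adjustment over all 13138 genes, 0 of the 43 were called higher (0.274% of all genes were) and 0 lower (0.632% of all genes). The smallest adjusted p was 0.0689, for Gins1. At an unadjusted p under 0.05, 30 were higher, where 10.2% of all genes were, and 0 were lower, where 6.49% of all genes were. Both HEBKO arrays lay above all 3 WT arrays for 35 of the 43, against 16.5% of all genes. The fitted differences ran from -0.01 for Gins2 to 1.11 ± 0.25 (SE) for Gins1.

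Arrays of 1 genotype differed among themselves in the same set of genes. WT 2 was above WT 1 and WT 3 for all 43, against 40.4% of all genes. Medians over the 43 genes, each taken from its WT mean, were 0.11, 0.14 and -0.17 in DKO, 0.50 and 0.48 in HEBKO, 0.18 and -0.25 in E2AKO, and -0.18, 0.25 and -0.08 in WT. The stage markers of HEBKO 1 lay farther from WT than those of HEBKO 2, and their part in these medians was not tested. Both HEBKO medians were above that of the highest WT array, WT 2, and the DKO and E2AKO medians fell within the WT range or, for E2AKO 2, below it. Against WT 2 alone, both HEBKO arrays were higher for 35 genes (35.1% of all genes), and against WT 1 and WT 3 for 41 (26% of all genes). With WT 2 left out, 13 of the 43 were called higher in HEBKO, by 0.46 to 1.28, and the median difference was 0.67. Without WT 1 the median was 0.42 and 0 were called, and without E2AKO 1 or E2AKO 2 the 1 gene called was Gins1. In DKO, DKO 3 was the lowest array for 39 genes (33.2% of all genes). In E2AKO, E2AKO 1 was above E2AKO 2 for 41 (47.2% of all genes).

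**Figure D2:**
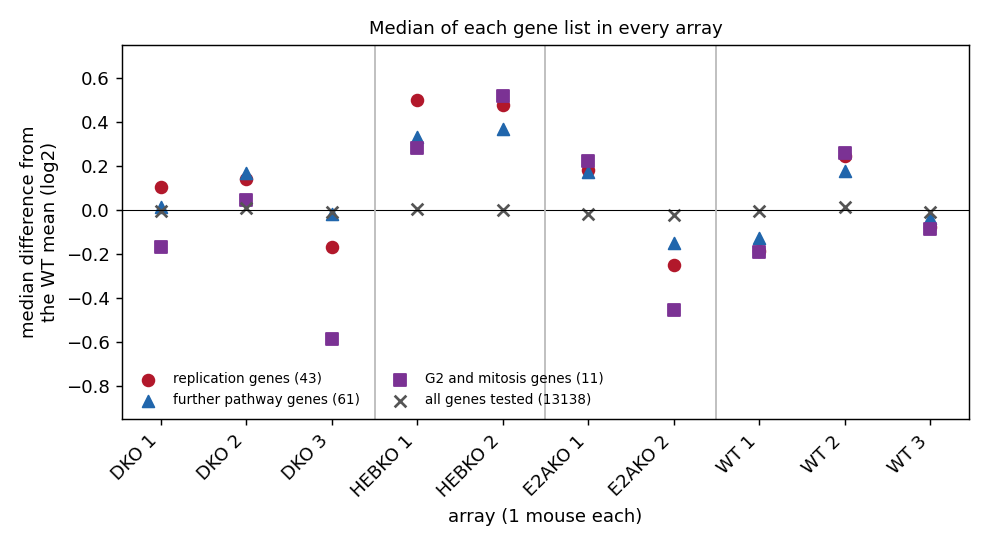
Median log2 difference from the WT mean on each array, for the 43 replication genes, 61 further replication genes and 11 genes of G2 and mitosis. Points are arrays, and crosses give all genes tested. The HEBKO arrays are the highest for the 43 genes, at 0.50 and 0.48, and WT 2 follows at 0.25.

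Genes of G2 and mitosis, a list of cell division markers read separately, were high on the same arrays. Of 11 tested, all 11 had a fitted mean above WT in HEBKO, with a median of 0.39, and 0 were called. Their summed linear intensity was 9009 to 14046 in DKO, 16866 to 19543 in HEBKO, 10586 to 15898 in E2AKO and 12475 to 16332 in WT, so that both HEBKO arrays exceeded every other array. In DKO 1 of the 11 was above WT, with a median of -0.23 and 0 called. Whether the share of dividing cells differed between the samples was not tested.

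The MCM2-7 helicase is the ring that unwinds the DNA. Both HEBKO arrays lay above all WT arrays for 6 of its 6 subunits (16.5% of all genes). The median difference was 0.02 in DKO, 0.52 in HEBKO and -0.10 in E2AKO. Mcm5 was at 9.74, 9.86 and 9.44 in DKO, 10.26 and 10.19 in HEBKO, 9.64 and 9.19 in E2AKO, and 9.32, 9.85 and 9.48 in WT. Both HEBKO arrays exceeded every other array for Mcm5, and the difference from WT was 0.68 ± 0.18 (limma adjusted p = 0.103). Mcm2 was at 10.19, 10.18 and 9.76 in DKO, 10.77 and 10.55 in HEBKO, 10.50 and 9.86 in E2AKO, and 10.30, 10.49 and 10.18 in WT. Mcm2 had the smallest difference of the 6 in HEBKO, 0.34 ± 0.19, and the farthest from 0 in DKO, -0.28 ± 0.17, where DKO and WT arrays overlapped. Mcm4 was at 10.19, 10.06 and 9.71 in DKO, 10.61 and 10.34 in HEBKO, 10.38 and 9.80 in E2AKO, and 9.94, 10.19 and 9.88 in WT. Its HEBKO arrays lay above WT, with E2AKO 1 between them, and the DKO difference of -0.02 ± 0.17 was the nearest to 0. The remaining ring subunits Mcm3, Mcm6 and Mcm7 had differences of 0.60, 0.56 and 0.41 in HEBKO.

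Origin recognition and licensing genes prepare origins for use. Orc1 is a subunit of the origin recognition complex and Orc6 another, while Cdc6 and Cdt1 bring in the helicase. In HEBKO 4 of 4 were above WT, with a median of 0.44, and the arrays did not overlap for 3 (16.5% of all genes). Cdc6 was at 8.66, 8.76 and 8.31 in DKO, 9.27 and 9.24 in HEBKO, 8.85 and 7.97 in E2AKO, and 8.51, 8.79 and 8.15 in WT. Both HEBKO arrays exceeded every other array for Cdc6, by 0.77 ± 0.24 over WT (adjusted p = 0.143), and the E2AKO arrays lay on either side of the WT range. Orc1 was at 6.53, 6.86 and 6.32 in DKO, 6.94 and 6.86 in HEBKO, 6.83 and 6.55 in E2AKO, and 6.46, 6.80 and 6.68 in WT. Cdt1 was at 9.09, 9.05 and 8.63 in DKO, 9.34 and 9.08 in HEBKO, 8.98 and 8.18 in E2AKO, and 8.78, 9.02 and 8.59 in WT. For both genes the HEBKO arrays lay above WT, by 0.25 ± 0.16 for Orc1 and 0.42 ± 0.22 for Cdt1, while the DKO arrays overlapped with WT. Orc6 was at 9.17, 9.41 and 9.05 in DKO, 9.45 and 9.78 in HEBKO, 9.25 and 9.03 in E2AKO, and 8.72, 9.61 and 9.13 in WT. WT 2 lay between the HEBKO arrays for Orc6, and no licensing gene was called in DKO, where differences ran from -0.08 to 0.13.

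The group around Cdc45 and GINS, which turns the loaded ring into a working helicase, spanned the widest range of differences in HEBKO. Gins1 was at 7.30, 7.42 and 6.87 in DKO, 7.95 and 7.84 in HEBKO, 7.36 and 6.51 in E2AKO, and 6.78, 7.12 and 6.44 in WT. Its HEBKO arrays exceeded every other array, and the difference from WT, 1.11 ± 0.25, was the widest of the 43. Gins2 was at 8.53, 8.30 and 8.02 in DKO, 8.89 and 8.69 in HEBKO, 8.72 and 8.54 in E2AKO, and 8.79, 8.89 and 8.71 in WT. For this second GINS subunit all 3 DKO arrays lay below every other array, while HEBKO and WT overlapped. Gins2 averaged 8.28 ± 0.25 in DKO and 8.80 ± 0.09 in WT (SD, n = 3 each), and fell by 0.51 ± 0.13 (SE, 1.43-fold, limma adjusted p = 0.0203). The 95% interval of the log2 difference was -0.79 to -0.23. That call was lost when DKO 2, DKO 3, WT 1 or WT 2 was left out, with an adjusted p of up to 0.0859. Cdc45 was at 8.67, 8.73 and 8.13 in DKO, 9.17 and 9.25 in HEBKO, 8.79 and 8.15 in E2AKO, and 8.39, 8.85 and 8.52 in WT. Both HEBKO arrays were the highest for Cdc45 (0.62 ± 0.21 over WT). Mcm10, which helps the helicase start, differed by 0.65 ± 0.24 in HEBKO, and the other GINS subunits Gins3 and Gins4 by 0.15 and 0.25.

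Of the clamp PCNA and its loaders, 7 of 7 genes had both HEBKO arrays above all WT arrays (16.5% of all genes). Their median difference in HEBKO was 0.52. Rfc4 was at 9.25, 9.65 and 9.01 in DKO, 9.75 and 9.83 in HEBKO, 9.41 and 8.86 in E2AKO, and 8.58, 9.38 and 8.84 in WT. HEBKO arrays were the highest for Rfc4, a loader subunit, 0.85 ± 0.24 over WT, with DKO 2 next. Rfc1, the large loader subunit, was at 9.41, 9.39 and 9.30 in DKO, 9.63 and 9.64 in HEBKO, 9.57 and 9.47 in E2AKO, and 9.04, 9.53 and 9.42 in WT. Rfc1 had the smallest difference of the group in HEBKO, 0.30 ± 0.13, and overlapped with WT in DKO. Rfc5 was at 9.11, 9.18 and 9.08 in DKO, 9.59 and 9.51 in HEBKO, 9.23 and 9.20 in E2AKO, and 9.23, 9.24 and 9.23 in WT. The 3 WT arrays of Rfc5 nearly coincided, both HEBKO arrays lay above them and all 3 DKO arrays below them. Against WT the differences were -0.11 ± 0.08 in DKO (adjusted p = 0.474) and 0.32 ± 0.09 in HEBKO (adjusted p = 0.123). The clamp gene Pcna, the loader subunits Rfc2 and Rfc3, and Dscc1, the last a part of another clamp loader used in sister chromatid cohesion, had differences of 0.52, 0.36, 0.58 and 0.65 in HEBKO. Pcna was read by a second probe set, which gave 0.53 in HEBKO and 0.11 in DKO.

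RPA, the complex of 3 subunits that covers single-stranded DNA, was the only group with a member that rose in DKO. Rpa1 was at 10.24, 10.40 and 10.33 in DKO, 10.05 and 10.10 in HEBKO, 9.78 and 9.88 in E2AKO, and 9.55, 9.82 and 9.66 in WT. All 3 DKO arrays exceeded every other array for this large subunit, and both HEBKO arrays exceeded all WT arrays. Rpa1 averaged 10.33 ± 0.08 in DKO and 9.68 ± 0.14 in WT (SD, n = 3 each), and rose by 0.65 ± 0.10 (SE, 1.57-fold, limma adjusted p = 0.000911). The 95% interval of the log2 difference was 0.44 to 0.86, and the gene was called under all 19 alternatives run, by 0.58 to 0.72. Against E2AKO it rose in DKO by 0.50 ± 0.11 (adjusted p = 0.0134), a call lost without DKO 2, E2AKO 1 or E2AKO 2. In HEBKO the difference from WT was 0.40 ± 0.11 (adjusted p = 0.109). Rpa2 was at 8.86, 9.05 and 8.81 in DKO, 9.06 and 9.27 in HEBKO, 8.76 and 8.44 in E2AKO, and 8.37, 8.86 and 8.63 in WT. Rpa3 was at 8.18, 8.56 and 8.17 in DKO, 8.34 and 8.77 in HEBKO, 8.35 and 7.82 in E2AKO, and 7.94, 8.45 and 7.81 in WT. For these smaller subunits DKO and WT arrays overlapped, with differences of 0.29 ± 0.14 and 0.23 ± 0.19. HEBKO lay above WT on both arrays for Rpa2 and overlapped with it for Rpa3. A second probe set of Rpa3 gave 0.09 in DKO and 0.26 in HEBKO, against 0.23 and 0.49 with the one used.

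**Figure D3:**
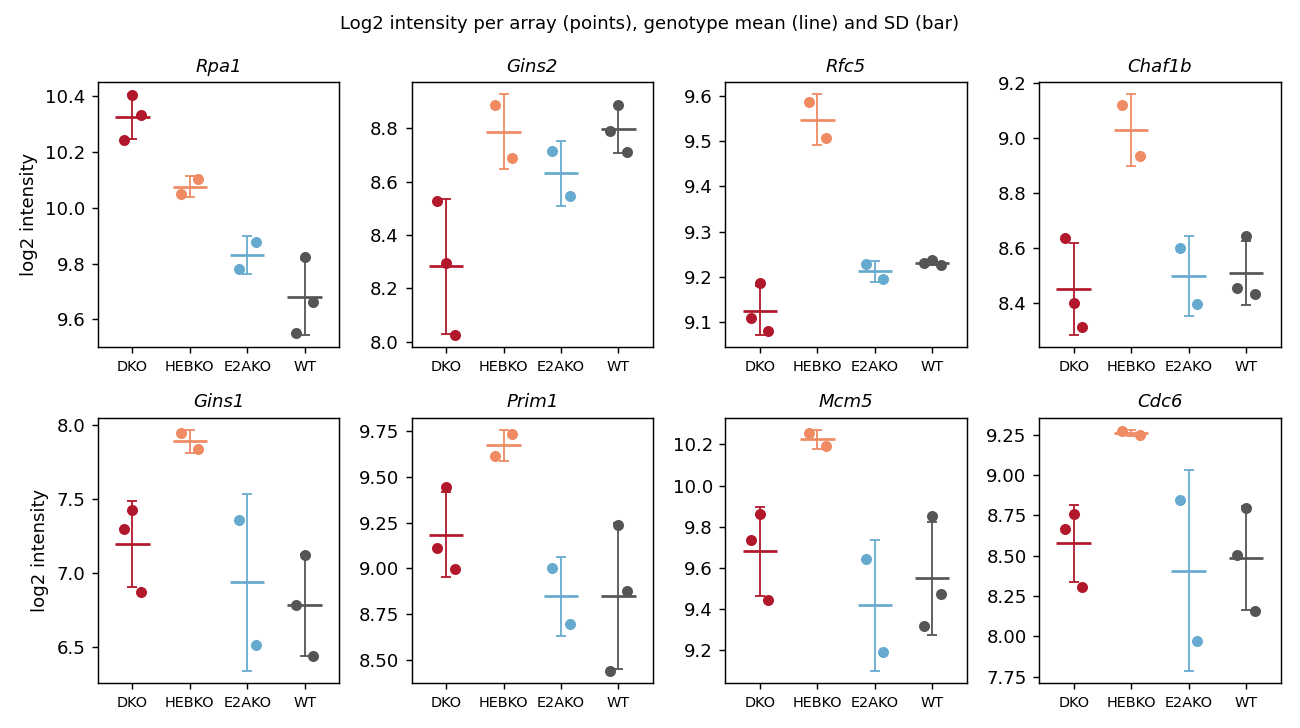
Log2 intensity of 8 replication genes by genotype, with points for arrays, a line for the group mean and a bar for the SD (n = 3 in DKO and WT, n = 2 in HEBKO and E2AKO). Rpa1 is highest in DKO and Gins2 lowest there, while Rfc5, Chaf1b, Gins1, Prim1, Mcm5 and Cdc6 are highest in HEBKO.

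Beside these 2 genes, DKO held no called member. Of the 43, 1 was called higher in DKO against WT, where 8.18% of all genes tested were, and 1 lower, where 5.41% of all genes were. The arrays did not overlap for 1 gene that was higher (Rpa1), against 16.7% of all genes, and for 2 that were lower (Gins2 and Rfc5), against 13.4%. The 43 differences ran from -0.51 to 0.65. Their median of 0.05 took either sign when single arrays were left out, at -0.07 without WT 1 and 0.18 without WT 2.

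Polymerase alpha with its primase lays down the first nucleotides of each new strand. Prim1, the catalytic primase subunit, was at 9.11, 9.44 and 9.00 in DKO, 9.61 and 9.73 in HEBKO, 9.00 and 8.69 in E2AKO, and 8.44, 9.24 and 8.87 in WT. Its HEBKO arrays were the highest, 0.82 ± 0.20 over WT (adjusted p = 0.0909). Pola2, a regulatory subunit of the polymerase, was at 9.02, 8.77 and 8.56 in DKO, 9.09 and 9.10 in HEBKO, 8.76 and 8.65 in E2AKO, and 8.61, 8.91 and 8.85 in WT. Prim2, the large primase subunit, was at 8.44, 8.63 and 8.16 in DKO, 8.50 and 8.68 in HEBKO, 8.48 and 8.24 in E2AKO, and 8.04, 8.60 and 8.35 in WT. Both HEBKO arrays were the highest for Pola2, with a difference of 0.30 ± 0.14, while for Prim2 the HEBKO arrays overlapped with WT (0.26 ± 0.17). Pola1, the catalytic subunit of the polymerase, differed by 0.63 ± 0.21 in HEBKO and 0.19 ± 0.19 in DKO. No gene of this group was called in DKO, where Prim1 had the widest difference, 0.33 ± 0.18.

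Polymerases delta and epsilon copy the bulk of the lagging and leading strands. Pole2 was at 7.28, 7.71 and 7.49 in DKO, 7.81 and 8.07 in HEBKO, 7.58 and 7.03 in E2AKO, and 6.84, 7.71 and 7.31 in WT. This epsilon subunit was above every other array in both HEBKO arrays, 0.66 ± 0.23 over WT. Pold1, the catalytic subunit of delta, was at 8.35, 8.22 and 7.98 in DKO, 8.99 and 8.63 in HEBKO, 8.37 and 8.03 in E2AKO, and 8.44, 8.75 and 8.27 in WT. Pold3, an accessory subunit of delta, was at 9.28, 9.27 and 9.11 in DKO, 9.52 and 9.65 in HEBKO, 9.43 and 9.18 in E2AKO, and 8.98, 9.55 and 9.42 in WT. WT 2 lay between the HEBKO arrays for both delta subunits. Pold1 had the differences farthest below 0 of this group, -0.30 ± 0.15 in DKO and -0.29 ± 0.17 in E2AKO. Pold2, another delta subunit, and Pole, the catalytic subunit of epsilon, differed by 0.58 and 0.59 in HEBKO.

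Fen1 and Lig1 trim and seal the short fragments of the lagging strand. Fen1 was at 9.08, 9.11 and 8.73 in DKO, 9.62 and 9.30 in HEBKO, 9.20 and 8.45 in E2AKO, and 8.87, 9.07 and 8.63 in WT. Lig1 was at 9.49, 9.42 and 8.97 in DKO, 9.91 and 9.95 in HEBKO, 9.63 and 9.03 in E2AKO, and 9.13, 9.74 and 9.33 in WT. For both genes the HEBKO arrays exceeded every other array, by 0.60 ± 0.21 and 0.53 ± 0.21 over WT, and DKO overlapped with WT.

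The enzymes that supply deoxynucleotides also stood highest in HEBKO. Rrm1 and Rrm2 are the subunits of ribonucleotide reductase, Tyms makes thymidylate and Tk1 salvages thymidine. Rrm1 was at 11.31, 11.34 and 10.88 in DKO, 11.78 and 11.71 in HEBKO, 11.45 and 10.97 in E2AKO, and 11.06, 11.48 and 11.11 in WT. Rrm2 was at 10.62, 10.86 and 10.30 in DKO, 11.13 and 11.50 in HEBKO, 11.01 and 10.26 in E2AKO, and 10.70, 11.08 and 10.77 in WT. Tk1 was at 8.30, 8.17 and 7.68 in DKO, 8.55 and 8.48 in HEBKO, 8.17 and 7.79 in E2AKO, and 7.93, 8.23 and 8.19 in WT. For these 3 genes both HEBKO arrays exceeded every other array, by 0.53 ± 0.18, 0.47 ± 0.22 and 0.40 ± 0.18 over WT. Tyms differed by 0.52 ± 0.19 in HEBKO and -0.16 ± 0.17 in DKO. In DKO 4 of 4 had fitted means below WT, with a median of -0.12, and 0 were called. A second probe set of Tk1 gave 0.04 in DKO, with the opposite sign.

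Chaf1a and Chaf1b are subunits of CAF-1, which places histones on newly made DNA. Chaf1b was at 8.64, 8.40 and 8.31 in DKO, 9.12 and 8.94 in HEBKO, 8.60 and 8.40 in E2AKO, and 8.45, 8.64 and 8.43 in WT. Chaf1a was at 8.13, 8.24 and 8.11 in DKO, 8.66 and 8.94 in HEBKO, 8.46 and 7.81 in E2AKO, and 7.89, 8.36 and 8.19 in WT. Both HEBKO arrays exceeded every other array for each gene, by 0.52 ± 0.13 (adjusted p = 0.0886) and 0.65 ± 0.19 over WT, and the DKO arrays overlapped with WT.

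**Figure D4:**
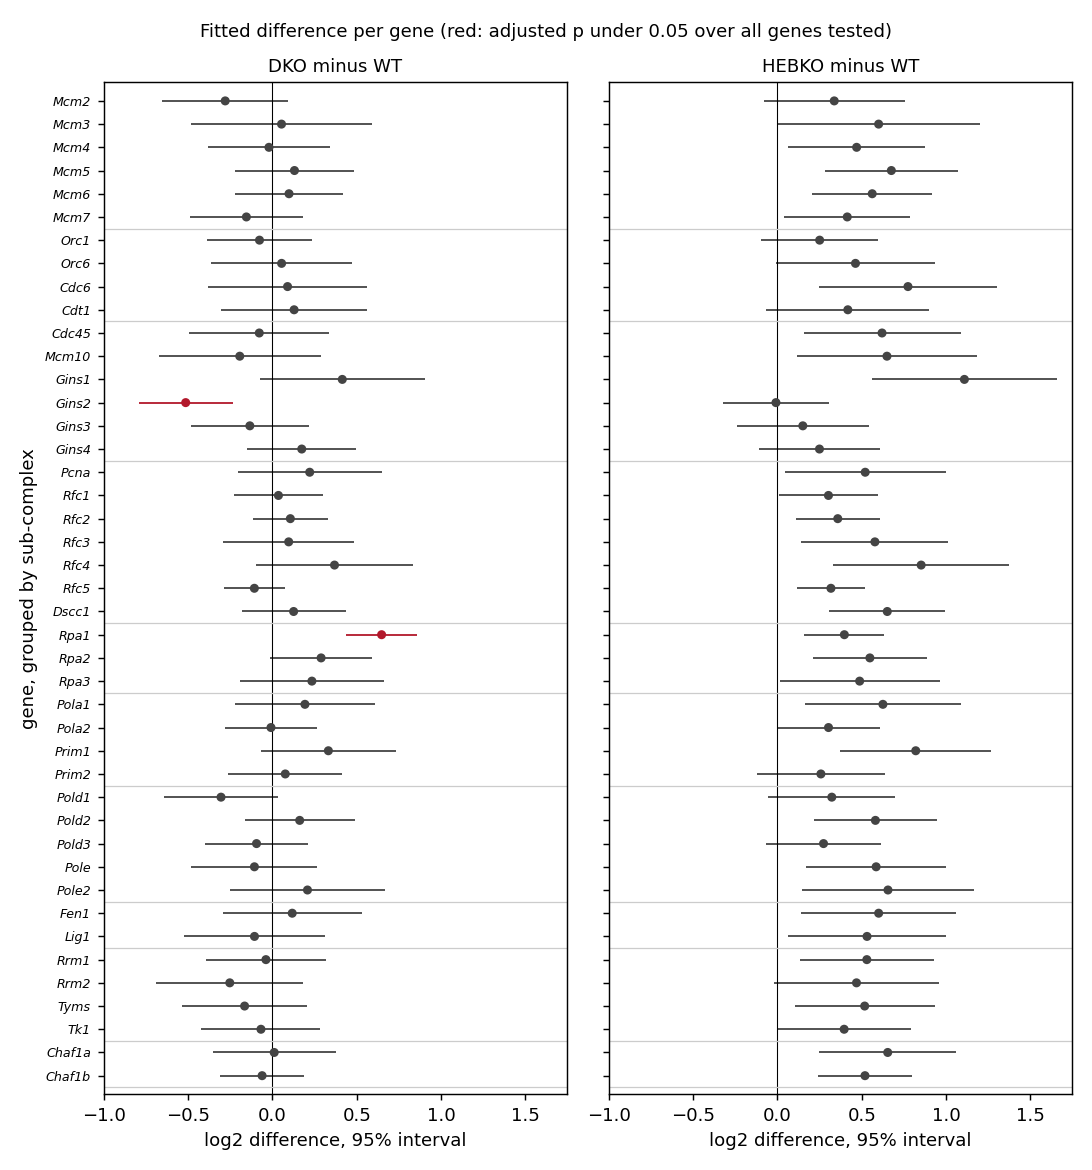
Fitted log2 difference of each of the 43 genes (rows, by sub-complex) with its 95% interval, in DKO against WT on the left and in HEBKO against WT on the right. Red marks an adjusted p under 0.05 over all genes tested. The HEBKO differences lie to the right of 0 for all but Gins2, while the DKO differences lie on both sides of 0 with Rpa1 and Gins2 in red.

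Setting DKO against HEBKO compares the loss of both factors with the loss of HEB alone. The difference itself uses no WT array, while its error and p come from the fit of all 10 arrays. The replication genes were lower in DKO. Of the 43, 42 had a fitted mean below HEBKO (49.6% of all genes did), with a median of -0.48, and all DKO arrays lay below both HEBKO arrays for 36 (16.4% of all genes). At an unadjusted p under 0.05, 28 were lower, against 7.54% of all genes. After adjustment 2 were lower, where 1.48% of all genes were, and 0 higher, where 2.15% were. Chaf1b fell by 0.58 ± 0.13 (1.49-fold, limma adjusted p = 0.0286) and Rfc5 by 0.42 ± 0.09 (1.34-fold, adjusted p = 0.0257). Both calls were lost without DKO 2, DKO 3, HEBKO 1 or HEBKO 2 and when only those groups were fitted (adjusted p = 0.0583 for Chaf1b and 0.0649 for Rfc5), and that of Rfc5 also without DKO 1 or WT 3. Rpa1 was the 1 gene above HEBKO, by 0.25 ± 0.11. The widest difference below was that of Mcm10, -0.84 ± 0.24. By group, the medians ran from -0.25 for RPA to -0.63 for the nucleotide enzymes. Stage markers differed between DKO and HEBKO as well. Of 8 tested DP markers 5 were called lower in DKO, and of 7 mature markers 5 were called higher. The part of stage in the values of the replication genes was not tested.

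HEBKO against E2AKO compares the single losses, with errors again from the fit of all 10 arrays. It shares its HEBKO arrays with HEBKO against WT, DKO against HEBKO and the interaction, so their counts are not independent. The 43 genes also moved together between arrays of the same genotype, so they are not separate observations. All 43 genes had a fitted mean above E2AKO (56.9% of all genes did), by 0.11 to 0.95 with a median of 0.57. The median was 0.78 without E2AKO 1 and 0.33 without E2AKO 2. Both HEBKO arrays lay above both E2AKO arrays for 39 (27.2% of all genes). At an unadjusted p under 0.05, 32 were higher, against 9.19% of all genes, and after adjustment 0 were higher (0.00761% of all genes) and 0 lower (0.0304%). The smallest adjusted p was 0.112.

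E2A loss alone gave no call against WT. By limma 0 of the 43 were called higher or lower, as for all genes tested (0% in each direction, smallest adjusted p 0.998). Tcf3 was among the uncalled genes, although both its E2AKO arrays lay below every WT array. The 0 calls therefore do not show how small the effect on the members was. At an unadjusted p under 0.05 there were 0 in each direction, against 1.1% of all genes higher and 2.08% lower, and the arrays of the groups overlapped for all 43, where 5.82% of all genes lay higher without overlap and 10.6% lower. The differences ran from -0.29 for Pold1 to 0.20 for Rfc4. Their median of -0.03 was 0.18 without E2AKO 2 and -0.25 without E2AKO 1. In DKO against E2AKO, Rpa1 was the 1 gene called higher (5.1% of all genes were), 0 were called lower (3.97% were), and the median was 0.07. That median took either sign, at 0.27 without E2AKO 1, with 40 genes above E2AKO, and -0.15 without E2AKO 2, with 8 above.

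The interaction asks whether the effect of HEB loss was the same with E2A lost (DKO minus E2AKO) as with E2A intact (HEBKO minus WT). It was below 0 for 42 of the 43 (45.3% of all genes), with a median of -0.45, against 0.02 over all genes tested. It ran from -0.85 for Gins1 to 0.10 for Rpa1. At an unadjusted p under 0.05, 9 were below 0, against 3.7% of all genes. After adjustment 0 were called on either side (0.122% of all genes below and 0.51% above), with a smallest adjusted p of 0.299. The median was -0.23 without E2AKO 1 and -0.64 without E2AKO 2.

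Further genes of replication, 64 by name in 6 lists and 61 tested, were read beside the 43. In HEBKO 56 of the 61 had a fitted mean above WT, with a median of 0.35, and both HEBKO arrays exceeded all WT arrays for 41, where 16.5% of all genes tested lay so. By limma 0 were called, with 32 higher at an unadjusted p under 0.05, against 10.2% of all genes, and a lowest adjusted p of 0.0674, that of Tipin. In DKO 3 of the 61 were called higher and 2 lower, shares no larger than the 8.18% and 5.41% of all genes, so that nothing about the lists is read from them. The DKO median was 0.05, and in E2AKO 0 were called.

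Of the 5 genes called in DKO, Samhd1 and Dck belong to nucleotide supply. Samhd1, an enzyme that degrades deoxynucleotides, was at 8.80, 7.95 and 9.53 in DKO, 6.84 and 6.27 in HEBKO, 6.15 and 6.31 in E2AKO, and 6.09, 6.39 and 5.92 in WT. All DKO arrays were the highest, and it rose by 2.62 ± 0.31 (limma adjusted p = 0.000154), a size that may be understated, since 2 of 3 WT arrays lay below the 40th percentile. Dck, the kinase that salvages deoxycytidine, was at 10.68, 10.79 and 10.36 in DKO, 11.19 and 11.41 in HEBKO, 11.49 and 11.61 in E2AKO, and 11.53, 11.70 and 11.47 in WT. All DKO arrays of Dck lay below every other array, and it fell by 0.96 ± 0.12 (adjusted p = 0.000339). E2f2, an activator of the E2F family, was at 8.94, 8.85 and 8.38 in DKO, 9.69 and 9.86 in HEBKO, 10.04 and 9.40 in E2AKO, and 9.76, 9.82 and 9.71 in WT. It was lowest on the DKO arrays and fell by 1.04 ± 0.17 (adjusted p = 0.00173). Dck and E2f2 were also lower in DKO than in HEBKO, by 0.69 ± 0.14 (adjusted p = 0.0179) and 1.05 ± 0.19 (adjusted p = 0.00961), calls that were both lost without HEBKO 2, and for Dck also without DKO 3 and when only those groups were fitted.

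Pold4, the smallest subunit of polymerase delta, and Rnaseh2a, a subunit of the nuclease that removes RNA from DNA, also rose in DKO. Pold4 was at 7.60, 7.79 and 7.87 in DKO, 7.47 and 7.28 in HEBKO, 7.09 and 7.04 in E2AKO, and 7.34, 7.37 and 7.38 in WT. It rose by 0.39 ± 0.10 (adjusted p = 0.0214). Rnaseh2a was at 9.01, 9.36 and 9.19 in DKO, 9.00 and 9.18 in HEBKO, 8.44 and 8.58 in E2AKO, and 8.55, 8.93 and 8.70 in WT. It rose by 0.46 ± 0.12 (adjusted p = 0.0298), and for both genes every DKO array lay above every WT array. Both calls were lost without DKO 2, DKO 3, WT 1 or WT 3. Both HEBKO arrays of Rnaseh2a lay above every WT array too. Pold4 and Rnaseh2a were also called higher in DKO against E2AKO, where 5.1% of all genes tested were. Rnaseh2a lost that call without E2AKO 1.

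Among genes that fire origins and guard the fork, 11 of 12 lay above WT in HEBKO, with a median of 0.58. Clspn, an adaptor of the replication checkpoint, was at 8.48, 8.63 and 8.14 in DKO, 9.19 and 9.21 in HEBKO, 8.69 and 8.53 in E2AKO, and 8.19, 8.89 and 8.73 in WT. Clspn was highest in HEBKO and lower in DKO than in HEBKO by 0.78 ± 0.19 (adjusted p = 0.0457), a call kept under 9 of 19 alternatives, with an adjusted p of up to 0.211 and of 0.0853 with the replicate block. Chek1, the checkpoint kinase, was at 8.70, 8.93 and 8.18 in DKO, 9.17 and 9.46 in HEBKO, 8.82 and 7.71 in E2AKO, and 8.20, 8.94 and 8.13 in WT. It had the widest HEBKO difference of the 61, 0.89 ± 0.32 (adjusted p = 0.198), with E2AKO 2 the lowest array. Samhd1 was higher in DKO than in HEBKO, by 2.20 ± 0.34 (adjusted p = 0.00408, lost without HEBKO 2), and was the 1 gene of the 61 called so.

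The remaining lists gave no call against WT beyond those named. Atad5, which takes the clamp off DNA, was at 8.59, 8.53 and 8.20 in DKO, 9.17 and 9.17 in HEBKO, 9.11 and 8.69 in E2AKO, and 8.55, 8.84 and 8.65 in WT. It was lower in DKO than in HEBKO by 0.73 ± 0.15 (adjusted p = 0.0217), with no overlap of arrays, and the call was lost without DKO 3, HEBKO 1 or HEBKO 2. Gmnn, whose protein geminin holds Cdt1 back, was at 7.02, 6.98 and 6.66 in DKO, 7.15 and 7.50 in HEBKO, 6.90 and 6.57 in E2AKO, and 6.32, 7.05 and 6.81 in WT. Its HEBKO difference, 0.60 ± 0.20 (adjusted p = 0.167), was the widest of the 10 further pre-replication genes, of which 9 lay above WT. Hells, a chromatin remodeller, was at 9.63, 9.68 and 8.97 in DKO, 9.96 and 10.04 in HEBKO, 9.71 and 8.83 in E2AKO, and 8.96, 9.62 and 8.91 in WT. It had the widest difference of the 8 chromatin genes in HEBKO, 0.84 ± 0.28 (adjusted p = 0.17), and 8 of 8 lay above WT there.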

How the data were processed

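The authors deposited linear intensity values, made by RMA, per the submitters' processing notes (version not given in the sources used here). Values were log2-transformed, with nothing added first. Of 34760 probe sets, 21640 carried 1 gene symbol, 1321 several and 11799 none, and the last 2 kinds were left out. The brightest probe set stood for a gene. Genes that reached the array's 40th percentile in at least 2 of 10 arrays were tested.

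In R 4.3.3, limma 3.58.1 estimated a mean for each genotype from all 10 arrays together, with eBayes moderation of the spread. Contrasts numbered 7, of which 3 set a knockout against WT, 3 set knockouts against each other, and the last was the interaction. Each p is two-sided and adjusted by the Benjamini-Hochberg method over the 13138 genes tested, with calls at an adjusted p under 0.05. Errors beside differences are standard errors from the fit. The steps were tested on simulated data in which genes varied independently and only DKO was shifted. The replication genes moved together between arrays, so that simulation does not test the differences described here. The number of arrays limits the precision.

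The genes, lists and tests were chosen with earlier results of these data known. Values on every array are given for members called in any contrast and for the widest and narrowest difference of each sub-complex in DKO and HEBKO against WT, and for called genes of the further lists. Mcm10, Pola1 and the other members are given by their differences. The labels call the arrays biological replicates. Alternatives were array weights, the replicate block, fitting only the groups compared, leaving out each array, quantile normalisation repeated on the deposited values, arrays shifted to 1 median, probe sets averaged per gene, moderation with trend and robust, and either no filter or one at the 60th percentile. Promoter sequences are from RefSeq tables of build GRCm38.p6.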

Additional observations from a re-analysis of the deposited data

Results flagged for a closer look

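Rfc1 and Rfc5, subunits of the clamp loader, were singled out from the replication genes by the order of their arrays. Every DKO array lay below every E2AKO array, while every HEBKO array lay above every WT array. Of all 13138 genes tested, 2118 lay so in the first comparison and 2165 in the second. Genes with both orders were not counted over all genes. DKO differed from E2AKO by -0.15 ± 0.13 for Rfc1 and -0.09 ± 0.09 for Rfc5 (log2, SE), and neither was called. HEBKO differed from WT by 0.30 ± 0.13 and 0.32 ± 0.09, also uncalled. For Rfc1 the effect of HEB loss with E2A lost minus that with E2A intact was -0.46 ± 0.19. Its limma adjusted p was 0.506. For Rfc5 the same difference was -0.41 ± 0.13, with an adjusted p of 0.299. The test of the difference was not passed for either gene.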

How the results depend on the processing

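Over the alternatives no call changed sign. Array weights, whose estimation stopped before its tolerance was reached, called 6 members higher in DKO against WT in place of 1 and 8 higher in HEBKO against WT in place of 0. With single arrays left out, members called in HEBKO against WT numbered 0 to 13 higher (13 without WT 2, 1 without E2AKO 1 or E2AKO 2), those lower in DKO against WT 0 to 1, those lower in DKO against HEBKO 0 to 3, and those higher in DKO against E2AKO 0 to 1. Arrays with the same number did not all deviate together, with correlations of -0.29 to 0.48 over 13 pairs and a median of 0.15. Over the 24 other pairs they ran from -0.48 to 0.41, with a median of -0.15. Where a genotype holds 2 arrays their deviations are mirror images, so these medians are not independent. Whether the numbers pair the mice was not tested, and the main fit took no pairing. With the replicate block, 0 members were called in HEBKO against WT (smallest adjusted p 0.0891, median 0.43), the calls of members kept their side, and over all genes 35 interactions above 0 and 8 below were called in place of 67 and 16. The median interaction over members was -0.30 with it. Calls over all genes in DKO against WT rose with it from 1075 higher and 711 lower to 1432 and 889. Over all genes the calls in HEBKO against WT, 36 higher and 83 lower, became 32 and 41 with arrays shifted to 1 median, 9 and 26 with only the groups compared, 306 and 209 with array weights and, with single arrays left out, 0 to 359 and 2 to 136. In DKO against WT, 1075 higher and 711 lower became 2217 and 1438 with array weights and 543 to 1254 and 448 to 705 with single arrays left out. With single arrays left out, DKO against HEBKO gave 117 to 297 higher (282 with all) and 76 to 212 lower (195), and DKO against E2AKO 313 to 757 higher (670) and 266 to 543 lower (521). HEBKO against E2AKO, with 1 higher and 4 lower, gave 20 and 66 with the replicate block, 7 and 15 with trend and robust moderation, 2 lower with arrays shifted to 1 median, and 0 to 19 and 0 to 36 with single arrays left out (19 and 36 without HEBKO 2). The cause was not tested. The interaction was not run with only the groups compared. Of the values of single genes, 5751 kept their call or, where uncalled in both fits, moved by less than the gene's spread. Another 49 lost a call, 33 gained one and 209 uncalled values moved by more than the spread. Reversal was scored only for values called in either fit, and 0 reversed. Uncalled values did change sign. In E2AKO against WT, 12 members lay above WT with all arrays and 38 without E2AKO 2.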

Other observations

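The CCAAT box, read as CCAAT on either strand, was found in 22 of the 35 promoter windows of replication genes (62.9%), against 37.4% of all windows and 41.8% of tested genes. The median difference of HEBKO from WT was 0.54 for the 22 genes with the box and 0.52 for the 13 without, and that of DKO 0.05 and -0.06. For the E2F words the medians were 0.55 with a word and 0.52 without in HEBKO, and 0.07 and 0.01 in DKO. Genes with an E-box word had a median of 0.43 in HEBKO and those without 0.55, and 0.01 and 0.05 in DKO. These medians are descriptions with no test, and the genes of each class are measured on the same arrays.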
